A study of Mus musculus with 4 samples.

Results

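A set of 7 mouse genes that the literature reports as sources of neoepitopes in the MC38 colon carcinoma line was followed in single-cell RNA of MC38 tumours. They were 7 of the 26172 genes listed over both libraries: Adpgk, Reps1, Dpagt1, Irgq, Aatf, Cpne1 and Med12. They were taken by name, not by their values, and only the abundance of their transcripts was measured, with no variants. All 7 were detected in both libraries.

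Tumours were grown from MC38 cells in untreated mice that were either wild-type or FOXP3 humanized, FOXP3 encoding the transcription factor of regulatory T cells. Mice of both genotypes were 10 weeks old, and tumours were taken 20 days after inoculation. Tumours were dissociated, immune cells were enriched on a Percoll gradient, and cells were captured in droplets (DNBelab C). Each genotype had 1 cDNA library, so no difference has a replicate check, and genotype, mouse and library cannot be told apart. The oligo libraries were not used here. Neither the part of FOXP3 that is humanized nor the number of mice behind a library is given in the sources used here, and the tumour cells come from 1 established line.

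A neoantigen is a peptide changed by a tumour mutation and displayed on major histocompatibility complex (MHC) molecules, where T cells can recognise it. For MHC class I, proteins are cut by the proteasome, peptides are carried into the endoplasmic reticulum by the TAP transporter and loaded there, and a source gene has to be transcribed for its peptide to be made at all. MC38 is widely used to study such responses, and mutant peptides from Adpgk, Reps1 and Dpagt1 are among its best-known class I neoantigens.

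Levels were summed over deep barcodes, defined as those with 5000 or more unique molecular identifiers (UMIs, which count each captured molecule once) and no UMI of Cd3e, Cd3d, Cd3g or Ptprc. There were 6705 deep barcodes of 7691 in the wild-type library (87.2%) and 9671 of 11087 in the humanized library (87.2%), with 129144384 and 140575771 UMIs and medians of 16866 and 12522 UMIs per barcode. The labels call all samples immune cells, but the deep barcodes held almost no leukocyte transcripts: a list of 21 leukocyte markers, which includes the gate genes, summed to 2.53 and 2.70 counts per 1000000 UMIs (CPM), with 6 and 7 of the 21 at 0, the 4 gate genes and Cd8a among them in both. A list of 8 carcinoma markers summed to 2876 and 4090 CPM, nearly all of it from the mesenchymal filament gene Vim, at 2870 and 4087. Of the epithelial genes in that list Cdh1 was highest, at 2.56 and 2.51 CPM, in 4.30% and 3.37% of deep barcodes. Epcam and Krt18 stood at 0.178 and 1.23 in the wild-type and 0.00711 and 0.00711 in the humanized library. A list of 9 fibroblast markers summed to 177 and 215 CPM, and 6 endothelial markers to 2.25 and 1.80. Because MC38 cells and stromal cells were not separated, the barcodes are called deep barcodes throughout. Barcodes in the libraries carry running numbers, of which 1551 occur in both, and 0 barcodes had the same counts in both libraries.

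The levels of the 7 genes spanned a wide range with nearly the same order in both libraries. Aatf was highest and Irgq lowest, and the 5 others lay close together. Levels are given as CPM, the UMIs of a gene per 1000000 UMIs of the deep barcodes, not divided by transcript length, so the order between genes is one of captured molecules. Their 95% intervals, exact Poisson, and those of shares, exact binomial (Clopper-Pearson), cover counting error only.

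Aatf (also called Che-1), a nucleolar factor of ribosomal RNA processing that also counters apoptosis, stood at 88.2 CPM (86.6 to 89.8) in the wild-type library and 85.4 (83.8 to 86.9) in the humanized library. That placed it at the 94.1st and 94.3rd percentile of the genes with a UMI. It supplied 43.7% and 44.0% of the summed level of the 7 genes, which was 202 and 194 CPM. No other member came near this level.

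Cpne1, a copine that binds phospholipid membranes in the presence of calcium, stood at 29.7 CPM (28.8 to 30.7) in wild-type and 27.2 (26.4 to 28.1) in humanized deep barcodes. Reps1, an EH-domain protein that links the small GTPase Ral to endocytosis, stood at 25.5 (24.6 to 26.4) and 20.1 (19.4 to 20.9). Dpagt1, the enzyme that starts the dolichol-linked sugar chain for N-glycosylation in the endoplasmic reticulum, stood at 23.6 (22.7 to 24.4) and 26.6 (25.7 to 27.4). Reps1 was therefore above Dpagt1 in the wild-type library, by a log2 ratio of 0.11 (0.041 to 0.18), and below it in the humanized library, where the log2 ratio of Dpagt1 over Reps1 was 0.40 (0.33 to 0.47). Cpne1 and Dpagt1 could not be ordered in the humanized library, where their log2 ratio was 0.034 (-0.031 to 0.099).

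Adpgk, an ADP-dependent glucokinase of the endoplasmic reticulum, stood at 16.1 CPM (15.4 to 16.8) and 16.6 (15.9 to 17.3). Med12, the subunit of the Mediator kinase module that activates its cyclin-dependent kinase, stood at 14.5 (13.8 to 15.2) and 14.2 (13.6 to 14.9). Irgq, a member of the immunity-related GTPase family that acts as an autophagy receptor in the quality control of MHC class I, stood at 4.37 (4.02 to 4.75) and 3.83 (3.51 to 4.16), from 565 and 538 UMIs. Irgq sat at the 59.5th and 60.0th percentile, so even the lowest member lay above the middle of the genes with a UMI. The other neighbours in the order of each library differed beyond counting error.

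**Figure D1:**
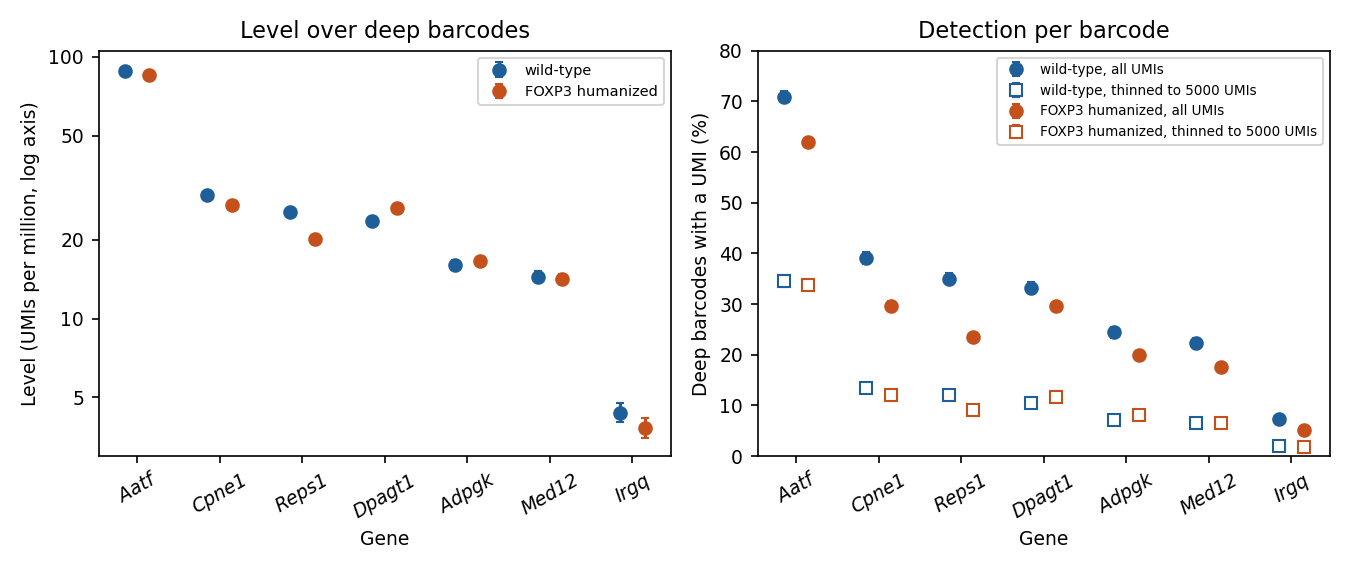
Levels (left, CPM, log axis) and shares of deep barcodes with a UMI (right, percent) of the 7 genes in the wild-type and FOXP3 humanized library, 1 library each; bars are 95% exact intervals for counting error. Aatf lies near 88.2 and 85.4 CPM and Irgq near 4.37 and 3.83, and with every barcode thinned to 5000 UMIs (open squares) the shares are 34.5% and 33.9% for Aatf but 12.1% and 9.14% for Reps1.

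Detection per barcode followed the levels. Aatf had a UMI in 70.9% of wild-type (69.8 to 72.0%) and 61.9% of humanized deep barcodes (60.9 to 62.9%), and Irgq in 7.40% (6.78 to 8.05%) and 5.22% (4.79 to 5.68%). After every barcode was thinned to 5000 UMIs, which left out none, the shares were 34.5% and 33.9% for Aatf and 2.00% and 1.84% for Irgq. At equal depth the 2 libraries were thus close for both genes.

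Of the other 5, Adpgk was detected in 24.4% and 19.9% of deep barcodes unthinned. Thinned, it was in 7.20% (6.60 to 7.85%) and 8.06% (7.52 to 8.62%), intervals that overlap, so the unthinned order was not kept. Dpagt1 likewise went from 33.2% and 29.6% unthinned to 10.6% (9.83 to 11.3%) and 11.7% (11.1 to 12.3%) thinned, where the intervals overlap too. Overlap does not show equal levels. The log2 ratio of thinned UMIs, humanized over wild-type, was 0.18 (0.045 to 0.31) for Dpagt1, which excludes 0. For Adpgk it was 0.14 (-0.019 to 0.30). Reps1 kept its order, with 35.0% and 23.5% unthinned and 12.1% (11.3 to 12.9%) and 9.14% (8.57 to 9.73%) thinned, intervals that do not overlap. Cpne1 was in 13.5% and 12.1% of thinned barcodes and Med12 in 6.49% and 6.60%. As a measure of free RNA in the droplets, the T cell receptor genes Trac, Trbc1 and Trbc2 had a UMI in 0.279% to 0.724% of deep barcodes and in 42.8% to 75% of T-marked barcodes, described below, whose medians were 1794 and 1557 UMIs. Those transcripts come from few barcodes, so their share sets no limit on free RNA of genes that the deep barcodes express.

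Each barcode showed only a few of the 7 genes. The median barcode had a UMI of 2 of them in both libraries, and of 1 after thinning. None of the 7 was seen in 9.11% of wild-type and 14.9% of humanized deep barcodes, and all 7 were seen in 28 and 9 barcodes. In thinned counts the variance over barcodes divided by the mean ran from 0.989 for Reps1 in the wild-type library to 1.1 for Aatf in the humanized library, where 1 is the value of pure counting noise. No barcode supplied more than 0.885% of a member's UMIs, the highest share being that of Irgq in the wild-type library. At this depth an absent UMI does not show an absent transcript.

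Across the depth limit itself, Aatf and Adpgk showed a step in the humanized library. In barcodes just under the limit, with 4000 to under 5000 UMIs (167 wild-type and 261 humanized), Aatf stood at 135 (110 to 164) and 109 CPM (91.1 to 130). Just over it, with 5000 to under 6000 UMIs (178 and 639 barcodes), it stood at 103 (83.7 to 125) and 68.8 (60.4 to 78.0). Adpgk stood at 18.7 and 25.6 CPM just under and at 18.3 and 12.1 just over the limit, on 14 to 43 UMIs. The intervals of both genes overlapped across the limit in the wild-type library and were apart in the humanized library.

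Between the genotypes, none of the 7 genes differed by 1.5-fold or more with an interval excluding no difference, the rule used here for a call. Over all 17134 genes with at least 20 UMIs, 16.6% were called, of which 164 genes (0.957% of those tested) were higher and 2680 (15.6%) lower in the humanized library. Among the 9847 genes with at least 1000 UMIs over both libraries, which include all 7 members, 5.2% were called, so a count of 0 of 7 is close to that background. With 1 library a genotype there is no test, and the intervals below are exact conditional ones for counting error only.

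Reps1 had the lowest humanized over wild-type log2 ratio of the members, -0.34 (-0.42 to -0.27), from 3292 wild-type and 2827 humanized UMIs. Dpagt1 had the highest, 0.17 (0.10 to 0.24), from 3044 and 3737 UMIs. Among the ratios of all genes tested, Reps1 lay at the 37.1st percentile, within the common range, and Dpagt1 at the 92.6th. The direction of both was the same within each of 3 depth bins, with Reps1 at -0.40, -0.30 and -0.31 and Dpagt1 at 0.22, 0.22 and 0.19 from the shallowest to the deepest bin. Reps1 and Dpagt1 therefore changed places in the order of levels without either passing the call.

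The other 5 members had log2 ratios of 0.044 (-0.042 to 0.13) for Adpgk, -0.025 (-0.12 to 0.066) for Med12, -0.047 (-0.084 to -0.0100) for Aatf, -0.13 (-0.19 to -0.061) for Cpne1 and -0.19 (-0.37 to -0.020) for Irgq. The median log2 ratio of the 7 was -0.047, beside -0.24 over all genes tested and -0.17 over genes with at least 1000 UMIs. Scaling by the median of ratios in place of total UMIs moved every ratio up by 0.22, and the share of called genes that were lower from 94.2% to 79.5%. On that scale Reps1 stood at -0.12 and Dpagt1 at 0.39, and the signs of Irgq (0.028), Aatf (0.17), Cpne1 (0.095) and Med12 (0.20) turned from negative to positive. The direction of these 4 genes thus depends on the scaling.

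Among the partner genes 7 passed the call, all lower, and none of the 9 lists had a gene called higher. Over all genes tested 0.957% were called higher and 15.6% lower, and over those with at least 1000 UMIs 0.386% and 4.81%, so the absence of higher calls is near the background and says nothing particular of these lists. Hk1 and Hk2, the hexokinases that phosphorylate glucose with ATP, had log2 ratios of -0.12 and -0.36, and 0 of the 3 measured glucose kinases were called. Of 11 genes of the Reps1 endocytic network 2 were called, both lower: its paralogue Reps2 at -0.66 (138 and 95 UMIs) and Rab11fip2, a Rab11 effector of vesicle recycling, at -0.59. None of 16 genes of N-glycan assembly was called, with Alg5 at -0.0049 and Dpm1, a subunit of the dolichol-phosphate-mannose synthase, at -0.36. Dpagt1 had the highest ratio of that list.

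Of 6 immunity-related GTPases 3 were called, all lower: Irgm1 at -0.70, Irgm2 at -0.67 and Tgtp2 at -0.99, the last on 73 and 40 UMIs and with a near-identical copy, Tgtp1, so that its count is uncertain. The 3 belong to the interferon-induced GTPases that act against intracellular parasites in the mouse. The others of the list were not called, namely Irgq itself, Igtp at -0.069 and Tgtp1 at -0.055. Igtp had the highest level of the list in both libraries. None of the 6 genes of the LC3 autophagy list was called, with Gabarap, an LC3 family protein, at 0.11 and the receptor Sqstm1 at -0.031.

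None of 13 genes of ribosomal RNA processing was called, with the methyltransferase Fbl at -0.0053 and the box C/D protein Nop58 at -0.18, beside the Aatf ratio of -0.047. None of 6 measured copines was called, with Cpne3 at -0.16 and Cpne8 at -0.24. Cpne1 was the highest copine in both libraries. None of 33 Mediator genes was called, with the kinase Cdk8 at -0.43 and Med28 at -0.24. Of 14 genes of MHC class I presentation 2 were called, both lower: Psmb8 at -0.61 and Psmb9 at -0.64. They encode subunits of the immunoproteasome and are also induced by interferon. The others of that list were not called, among them Psmb10 at -0.071, Tap1 at -0.19 and Nlrc5 at -0.24. With median of ratios scaling 1 of these 7 partner calls remained, that of Tgtp2 at -0.77, and the other 6 lay between -0.48 for Irgm1 and -0.37 for Rab11fip2. On that scale no gene of the 9 lists was called higher, and Hk1 (0.098), Alg5 (0.22), Sqstm1 (0.19), Fbl (0.22), Nop58 (0.039) and Cpne3 (0.057) were above 0.

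**Figure D2:**
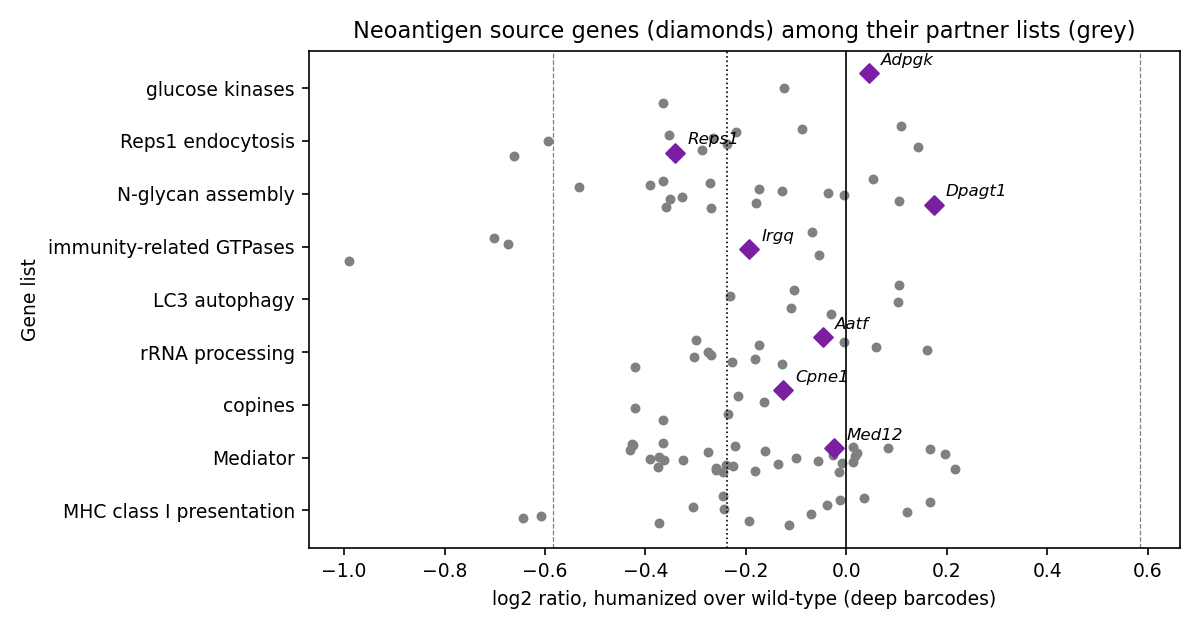
Log2 ratio of humanized over wild-type deep barcodes (x axis) for each measured gene of 9 lists (y axis), with the neoantigen source genes as labelled diamonds and other genes in grey; the dotted line is the median of all genes, -0.24, and the dashed lines mark 1.5-fold. The 7 diamonds lie between -0.34 for Reps1 and 0.17 for Dpagt1, inside the dashed lines.

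Within each library, deep barcodes differed in which transcript programmes they showed, and the levels of the members were compared along these. For each of 9 lists (G2/M, S phase, integrated stress, chemokines, interferon, collagens, hypoxia, heat shock and metallothioneins) the top 10% of deep barcodes by the summed level of the list was set against the other deep barcodes, 670 against 6035 in the wild-type and 967 against 8704 in the humanized library. No member is in any of these lists, and a top 10% is a range of a score, not a cell type. Of 63 pairs of member and list, 2 were called for wild-type and 6 for humanized barcodes, and 2 were called in both. In 16 pairs the ratio had the same sign in both libraries with both intervals excluding 0, and in 0 pairs it had opposite signs with both intervals excluding 0. Over all genes tested, the called share by list was 4.17% to 14.4% for wild-type and 3.41% to 19.1% for humanized barcodes. Among genes with at least 1000 UMIs, 12.1% (interferon) to 50.9% (metallothioneins) had the same sign with both intervals excluding 0. These counts of pairs thus say nothing particular of the members.

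**Figure D3:**
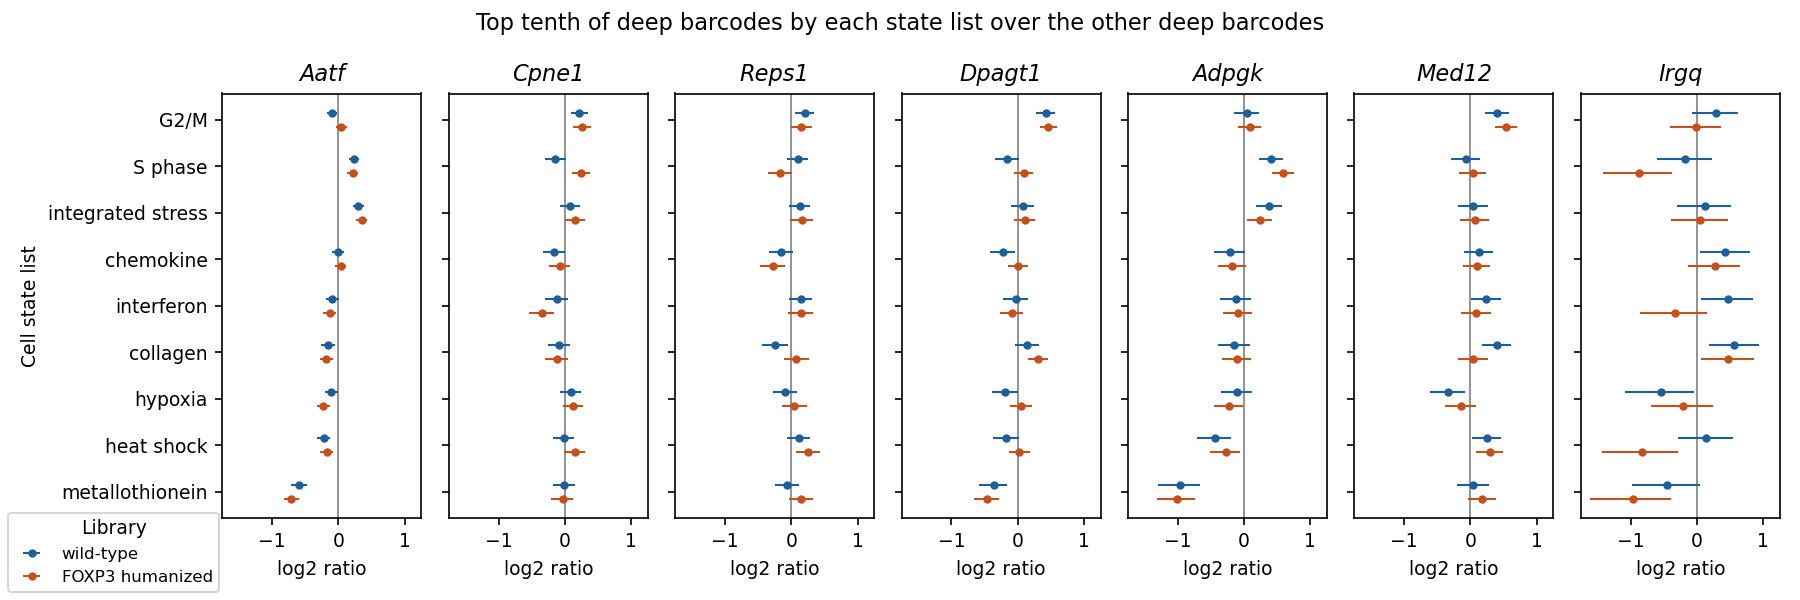
Log2 ratio of the top 10% of deep barcodes by each state list over the other deep barcodes of the same library (x axis), for 9 lists (y axis) and the 7 genes (panels), with 95% exact conditional intervals for counting error. Adpgk and Aatf lie lowest for metallothioneins, at -0.97 and -0.59 in the wild-type and -1.02 and -0.71 in the humanized library.

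The 2 pairs called in both libraries were Adpgk and Aatf with the metallothioneins Mt1 and Mt2, small proteins that bind zinc and copper and are induced by metals and stress. Adpgk stood at 8.53 CPM in the top 10% against 16.8 in the other wild-type barcodes, and at 8.57 against 17.3 in the humanized library. The log2 ratios were -0.97 (-1.29 to -0.67) and -1.02 (-1.31 to -0.73). Adpgk was thus lower in the metallothionein-high barcodes of both libraries.

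Aatf stood at 60.1 against 90.7 CPM in the wild-type and at 54.0 against 88.4 in the humanized library. Its log2 ratios were -0.59 (-0.71 to -0.48) and -0.71 (-0.83 to -0.60). The wild-type ratio is just past the 1.5-fold limit of 0.585, and it missed the call in 4 of 5 alternatives, with a range of -0.60 to -0.43. The Adpgk ratio in the humanized library missed it in 1 of 5, at -0.57 with the top 25% in place of the top 10%.

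Metallothionein-high barcodes were low for many genes, 11.1% of those tested being called lower for wild-type and 16.2% for humanized barcodes. In either direction 14.4% and 19.1% were called. Of the 7 members 2 were called for wild-type and 3 for humanized barcodes, all lower, the third being Irgq. Among genes with at least 1000 UMIs, the share at least 1.5-fold lower in both libraries was 10.5%, and 41.5% were lower in both with intervals excluding 0, as Dpagt1 was too at -0.36 and -0.47. Adpgk lay at the 2.40th and 3.47th percentile of these genes' ratios and Aatf at the 13.0th and 12.3rd. The median ratio of genes with at least 1000 UMIs was -0.18 and -0.24. Mt1 and Mt2 made up 2.52% and 2.49% of the UMIs in the top 10% against 0.534% and 0.463% in the others, and the top 10% was shallower, with medians of 13278 against 17197 UMIs in the wild-type and 10940 against 12696 in the humanized library. With Mt1 and Mt2 left out of the totals Adpgk stood at -0.94 and -0.99, and within barcodes of 10000 to under 20000 UMIs at -0.81 and -0.88. The top 10% also overlapped that by heat shock genes in 31.9% and 29.3% of its barcodes, and that by hypoxia genes in 21.5% and 29.2%, whose part in the result was not tested. It shared 3.13% and 2.17% of its barcodes with the top 10% by S phase genes. Among barcodes outside the top 10% by G2/M and by S phase genes Adpgk stood at -0.96 and -1.03 and Aatf at -0.60 and -0.66, all past the call.

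Across 10 equal classes of deep barcodes ordered by metallothionein level, Adpgk stood at 19.4 CPM in the first and 8.53 in the last class of the wild-type library, and at 21.5 and 8.57 in the humanized library. Aatf stood at 102 and 60.1, and at 105 and 54.0. Dpagt1 stood at 25.2 and 18.7, and at 32.0 and 19.7. Cpne1, Reps1 and Med12 showed no such course. Cpne1 stood at 31.4 and 29.4 CPM in the wild-type and 31.0 and 26.6 in the humanized library. Reps1 stood at 24.8 and 24.5, and at 17.5 and 22.0. Med12 stood at 13.9 and 14.9, and at 15.0 and 15.9. Irgq stood at 5.13 (4.00 to 6.48) and 3.28 (2.29 to 4.56), and at 3.60 (2.65 to 4.77) and 2.04 (1.32 to 3.01). It had 70 and 35 UMIs in these classes of the wild-type library and 48 and 25 in those of the humanized library. Its intervals overlapped between the first and last class, which does not show equal levels, and an interval of their ratio is not given here. In the humanized library Irgq was highest in class 5, at 5.88 (4.72 to 7.25), with an interval apart from that of the last class. In the wild-type library it was highest in class 7, at 5.46 (4.24 to 6.92), which overlapped the last class.

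**Figure D4:**
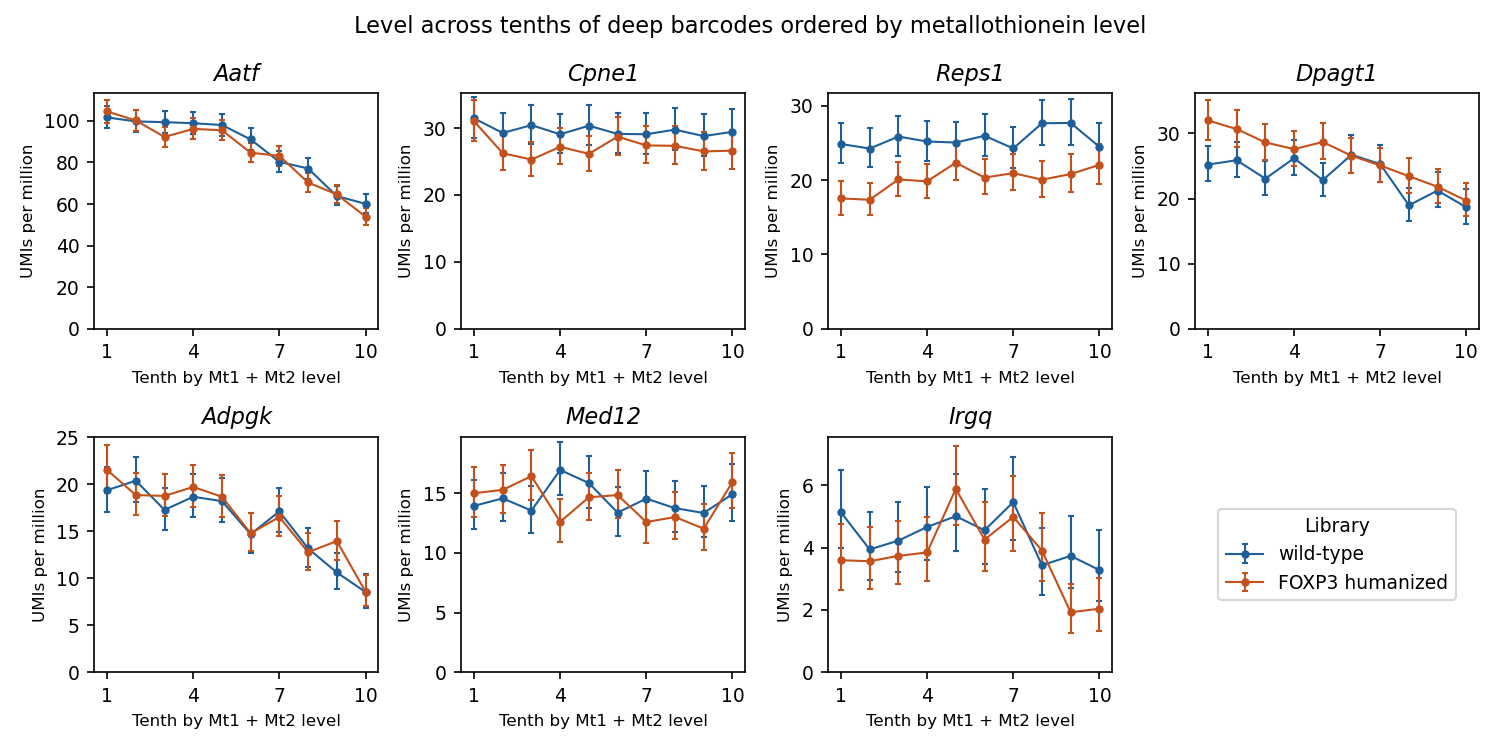
Level of each gene (y axis, CPM, starting at 0) in 10 equal classes of deep barcodes ordered from the lowest to the highest Mt1 and Mt2 level (x axis), in each library, with 95% exact Poisson intervals. Adpgk goes from 19.4 and 21.5 in the first class to 8.53 and 8.57 in the last, and Aatf from 102 and 105 to 60.1 and 54.0, while Cpne1 goes from 31.4 and 31.0 to 29.4 and 26.6.

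Because Adpgk and Aatf were both lower in metallothionein-high barcodes, their promoters are shown beside that of Mt2. RefSeq sequences of the 250 bases before the start of each gene (GRCm38.p6, a build other than that of the counts) matched 5 of the 7 members by symbol, all but Reps1 and Dpagt1. Each is given 5′ to 3′ on the strand of its gene, Adpgk at chr9:59291322-59291571 on the plus strand, Aatf at chr11:84513502-84513751 on the minus strand and Mt2 at chr8:94172368-94172617 on the plus strand. In Adpgk and Aatf capitals mark the GC box GGGCGG on either strand, and in Mt2 they mark the core of the metal response element, TGCACNC or TGCGCNC, on either strand.
Adpgk: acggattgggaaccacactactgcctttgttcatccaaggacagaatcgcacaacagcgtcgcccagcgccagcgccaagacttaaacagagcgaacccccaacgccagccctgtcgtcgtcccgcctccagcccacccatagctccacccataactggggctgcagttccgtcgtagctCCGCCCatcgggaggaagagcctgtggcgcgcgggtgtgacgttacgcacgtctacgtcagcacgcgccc
Aatf: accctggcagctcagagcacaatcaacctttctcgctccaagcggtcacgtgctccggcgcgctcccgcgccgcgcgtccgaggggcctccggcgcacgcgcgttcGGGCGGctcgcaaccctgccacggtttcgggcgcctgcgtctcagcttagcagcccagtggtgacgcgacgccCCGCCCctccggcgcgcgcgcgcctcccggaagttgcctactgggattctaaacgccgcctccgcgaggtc
Mt2: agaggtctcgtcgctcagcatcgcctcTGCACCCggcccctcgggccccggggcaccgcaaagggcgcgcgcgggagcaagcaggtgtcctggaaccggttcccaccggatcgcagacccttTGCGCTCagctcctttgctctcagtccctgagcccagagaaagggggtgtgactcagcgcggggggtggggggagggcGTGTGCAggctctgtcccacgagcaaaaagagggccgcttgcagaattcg
The GC box occurred 1 time in Adpgk and 2 times in Aatf, and also 1 time in Irgq and Med12, 2 times in Mt1 and 0 times in Cpne1 and Mt2, so it does not separate the members that were lower from the others. It is common, and 32.7% of 32851 promoter windows of this length hold it. The metal response core occurred 3 times in Mt2 and 1 time in Mt1, 0 times in the windows of the 5 matched members, and in 21.4% of all windows. Both member promoters were rich in CpG, with 39 CpG dinucleotides in Aatf and 24 in Adpgk against a median of 6 over all windows, and Med12 had 22, Irgq 15 and Cpne1 11. These matches describe the letters in the windows only.

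In the top 10% by S phase genes Adpgk and Aatf stood higher in both libraries, with Adpgk called in the humanized one. Adpgk stood at 23.6 against 15.7 CPM in the humanized library, a called log2 ratio of 0.59 (0.42 to 0.75), and at 20.6 against 15.5 in the wild-type library, 0.41 (0.23 to 0.59). Aatf stood at 102 against 86.5 and at 97.3 against 83.9 CPM, with log2 ratios of 0.23 (0.15 to 0.32) and 0.21 (0.13 to 0.29) in the wild-type and humanized library. Irgq stood at 2.20 against 4.03 in the humanized library, -0.87 (-1.42 to -0.37) on 34 UMIs in the top 10%, and at -0.18 (-0.61 to 0.22) in the wild-type library. The S phase list thus had 2 of 7 members called in the humanized library, where 7.99% of genes were, and 0 of 7 in the wild-type library, where 7.43% were. Neither humanized call held after thinning or with the top 25%, where Adpgk stood at 0.28 and 0.41 and Irgq at -0.30 and -0.42. Within barcodes of 10000 to under 20000 UMIs the Adpgk call held, at 0.63 (0.38 to 0.88), and that of Irgq did not, at -0.45. With Mt1 and Mt2 left out of totals the Irgq call held, at -0.88, and that of Adpgk did not.

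In the top 10% by G2/M genes Med12 and Dpagt1 stood higher, without passing the call. Med12 stood at 18.4 against 13.9 CPM in the wild-type and at 19.6 against 13.5 in the humanized library, log2 ratios of 0.40 (0.22 to 0.58) and 0.54 (0.37 to 0.71). Dpagt1 stood at 30.3 against 22.6 and at 35.0 against 25.4, with ratios of 0.42 and 0.46, and Cpne1 had ratios of 0.22 and 0.26. Within barcodes of 10000 to under 20000 UMIs the Med12 ratios were 0.67 and 0.63 and passed the call in both libraries. The share of all genes called in that range of depth is not given here, so whether Med12 stands out there cannot be told. Over all deep barcodes the median ratio of genes with at least 1000 UMIs was 0.10 and 0.083. Of those genes 28.7% were higher in both libraries with intervals excluding 0. The G2/M barcodes were deeper, with medians of 22482 against 16485 UMIs in the wild-type and 15495 against 12232 in the humanized library.

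For the remaining lists several members had ratios below the call with the same sign in both libraries. For integrated stress genes such as Atf4 and Ddit3, Aatf had ratios of 0.30 and 0.35 and Adpgk of 0.37 and 0.23. For heat shock genes Adpgk had ratios of -0.45 and -0.28, Aatf of -0.22 and -0.17, and Med12 of 0.25 and 0.29. Aatf was also below 0 for hypoxia, at -0.10 and -0.23, and for collagens, at -0.16 and -0.18. Intervals of these pairs excluded 0 in both libraries, and none passed the call. Both intervals excluded 0 on the same side for 27.8% (collagens) to 31.4% (integrated stress) of genes with at least 1000 UMIs across these lists. Agreement between the libraries in these pairs thus says nothing particular of the members. No member was called for 6 of the 9 lists, G2/M included. The genes called for those lists were 7.48% (wild-type) and 6.18% (humanized) of all genes tested for G2/M, 5.62% and 4.84% for integrated stress, and 5.61% and 3.41% for chemokines. For interferon genes they were 4.17% and 3.53%, for collagens 7.83% and 5.88%, and for hypoxia 5.5% and 7.63%.

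The Irgq ratios rested on few UMIs and lay far apart between the libraries for several lists, a difference that was not tested. Its collagen ratios were 0.57 (0.18 to 0.93) and 0.47 (0.061 to 0.86), while for interferon genes it stood at 0.47 (0.069 to 0.85) in the wild-type and -0.34 (-0.87 to 0.15) in the humanized library. For heat shock genes it was 0.14 (-0.29 to 0.55) and, called in the humanized library, -0.83 (-1.44 to -0.29), where 1 of 7 members was called beside 5.8% of genes, and 0 of 7 beside 5.87% in the wild-type library. For metallothioneins it was -0.45 (-0.98 to 0.047) and, again called in the humanized library, -0.97 (-1.61 to -0.39) on 25 UMIs, which was -0.10 after thinning. Reps1 had no list for which both intervals excluded 0 on the same side, Aatf had 6 and Adpgk had 4. These tallies also depend on interval width, as Aatf had 11390 and 12000 UMIs against 3292 and 2827 for Reps1. Among genes with at least 1000 UMIs, 12.1% to 50.9% met this rule, depending on the list.

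Few molecules of the members were counted in T-marked barcodes, those with under 5000 UMIs and at least 2 UMIs of the gate genes, a class of 92 wild-type and 145 humanized barcodes with 181297 and 255785 UMIs in all. Aatf was lower there than in deep barcodes in both libraries, at 27.6 against 88.2 CPM on 5 UMIs, a log2 ratio of -1.68 (-3.30 to -0.45), and at 31.3 against 85.4 on 8 UMIs, -1.45 (-2.66 to -0.47). Med12 was higher in the wild-type library, at 44.1 against 14.5 on 8 UMIs, 1.61 (0.39 to 2.59), and stood at -0.28 (-2.56 to 1.27) in the humanized library. With at least 4 gate UMIs the wild-type Med12 ratio was 1.42 (-0.027 to 2.55) and was not called. Reps1 was higher in the humanized library, at 58.6 against 20.1 on 15 UMIs, 1.54 (0.70 to 2.27), and stood at 0.38 (-1.07 to 1.5) in the wild-type library. These were 2 of 7 members called in each library, 1 in each direction, beside 21.9% and 25% of all genes. In the wild-type library 14.3% of genes were called higher and 7.61% lower, and in the humanized library 16.0% and 9.02%. Over genes with at least 5 UMIs expected at their deep level (4103 and 4838 genes) the median log2 ratio was -0.40 and -0.36. Of the members, Aatf and Cpne1 reached that limit in both libraries, and Reps1 and Dpagt1 in the humanized library only. Med12, Adpgk and Irgq reached it in neither. Collagen genes in T-marked barcodes stood at 12.8% and 17.5% of their level in deep barcodes, and the part of free RNA in the members' counts there was not tested.

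The genes most like each member were found over 18 strata, which are the 2 libraries by 3 depth bins by 3 cell cycle classes, with Pearson's r of log2(CPM + 1) over 9278 genes. These values are a description, because strata share a library and the smallest held 84 barcodes. For Adpgk they were Nudc (r = 0.95), Umps (0.94) and Mbd3 (0.94), and for Aatf Cyc1 (0.95), Jpt2 (0.92) and Psph (0.92). For Reps1 they were Oga (0.93), Smap1 (0.92) and Map4k3 (0.91), and for Dpagt1 Flrt2 (0.93), Lmna (0.92) and S1pr2 (0.92). Irgq, Cpne1 and Med12 had looser matches, led by Sox2 (0.83), Bdp1 (0.85) and Fbxl8 (0.86). Among the members themselves the highest r was that of Adpgk with Aatf, 0.80, followed by Dpagt1 with Med12, 0.68, and the lowest was that of Adpgk with Reps1, -0.40.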

How the data were processed

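The deposited values are UMI counts, 1 matrix for each library, not normalized, made with PISA 1.0 per the file headers. The build is GRCm39 per the submitters' processing notes. Not given in the sources used here are the aligner, the annotation, the cell calling and whether strand was used, so reads of overlapping genes cannot be told apart. Counts were summed over deep barcodes (at least 5000 UMIs, 0 UMIs of the 4 gate genes) and scaled to CPM, with 95% exact Poisson, Clopper-Pearson and conditional intervals (Python 3.11.15, scipy 1.17.1, numpy 2.4.6, pandas 2.3.3). They cover counting error only. A sum of 0 was set to 3 counts in a ratio. A call is at least 1.5-fold with an interval excluding no difference, over genes with at least 20 UMIs. No test was possible with 1 library for each genotype. No doublet caller was run, and the top 5% of barcodes by UMIs were left out as an alternative. Thinning drew 5000 UMIs per barcode. The ratio step was tested on simulated data.

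All 7 members are reported. Of each partner list, genes past the call (up to 4) or otherwise the 2 with the most UMIs are named, and for each member the 3 genes with the highest correlation were found. A few others, among them Tgtp1, Igtp, Psmb10, Tap1 and Nlrc5, were named after their values were seen. Members and lists were chosen with earlier results of these data known. Alternatives covered depth limits, scaling, thinning, gates and left-out barcodes.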

Additional observations from a re-analysis of the deposited data

How the results depend on the processing

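No paired analysis was possible because each genotype had 1 library, and for the same reason no replicate could be left out. Genes called higher and lower in the humanized library were 164 and 2680, against 356 and 1381 with median of ratios scaling, 94 and 1741 with barcodes thinned to 5000 UMIs, and 38 and 474 over genes with at least 1000 UMIs. Fewer genes were tested with thinned barcodes (14560 against 17134) and over genes with at least 1000 UMIs (9847). Median of ratios scaling added the same 0.22 to every log2 ratio, so its shift in calls follows by construction. Pairs of member and state list called were 2 in the wild-type library, against 1 with thinned counts, 1 with the top 25%, 5 within 10000 to under 20000 UMIs and 1 with Mt1 and Mt2 left out of totals. They were 6 in the humanized library, against 3 with thinned counts and 2 with the top 25%. The 5 were Adpgk with metallothioneins and heat shock, Med12 with G2/M and collagens, and Irgq with interferon genes. Shares of all genes called by state list under these alternatives are not given here, so these counts of pairs have no background beside them. Members called in wild-type T-marked barcodes went from 2 to 1 when 4 gate UMIs were asked for, where Med12 stood at 1.42 (-0.027 to 2.55). The genotype ratios of the members ranged over the 10 alternatives that could move them from -0.39 to -0.12 for Reps1 and from 0.16 to 0.39 for Dpagt1, with no member called in any. In 3 others, a 5% mitochondrial limit that removed no barcode and both filters on low genes, they are the same by construction. The mean over barcodes gave no interval and no gene counts. The settings of at least 1000 UMIs, of barcodes outside the top 10% by metallothioneins or by cell cycle genes, of 10000 to under 20000 UMIs, of metallothioneins out of totals the 10 metallothionein classes and the median over genes with 5 expected UMIs were chosen after seeing the data. Irgq, with 34 or fewer UMIs in each top 10% where it was called, is the member most limited by depth. Of the counts of calls, 35 values under alternatives stayed within 1.5 times and 13, given above, did not. Of 212 values for single members followed through the alternatives, 21 are the reported value by construction, 15 called ratios missed the call, and 0 called ratios changed sign. A further 24 values moved, and 1 ratio not called as reported passed the call. Among those that moved, Reps1 with metallothioneins in wild-type barcodes went from -0.064 to 0.12 within 10000 to under 20000 UMIs. Over all 63 pairs of member and list in each library, 7 ratios not called as reported passed the call in some alternative, 5 of them within 10000 to under 20000 UMIs. The others were Med12 with G2/M at 0.84 in thinned humanized counts and Irgq with collagens at 0.67 in wild-type barcodes outside the cell cycle top 10%.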
